A study of Sus scrofa with 48 samples.

Results

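The comparison described here is that of ileum from weaned low growth and high growth piglets on day 39, measured by RNA sequencing. It covers the 12 libraries labelled as ileum of day 39, of 48 in the whole series, and these 12 were analysed alone. The low growth group held 6 libraries from pigs (Sus scrofa) with a low average daily gain from day 0 to day 39. The high growth group held 6 libraries from pigs classed as high growth by the same measure. Both groups were weaned pigs sampled on the same day, and the labels give no drug, diet, breed, litter, sex, pen or sequencing batch. The series also holds ileum of day 7 and hypothalamus of both days, of which only the 12 ileum libraries of day 7 are used below.

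The ileum is the last stretch of the small intestine. Its enterocytes carry digestive enzymes on a brush border, take up sugars, peptides and lipids, and are the main site where bile acids return to the body through the transporter SLC10A2 and the carrier FABP6. Stem cells in the crypts renew this epithelium, and in pigs the ileal wall holds a long Peyer's patch rich in B cells over layers of smooth muscle. A piece of ileum therefore mixes many cell types, and in such pieces fewer cells of a type and less RNA per cell cannot be told apart.

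The total estimated count per library was 17852378 ± 3005943 in low growth, against 16859531 ± 1219532 in high growth (SD, n = 6 each), with an exact two-sided permutation p of 0.539. Values below are in CPM, counts scaled to a common library total and for library composition, and for each group the lowest, the median and the highest of its 6 libraries are given in that order. FABP6, the bile acid carrier that marks ileal enterocytes, had 2763, 3912 and 7217 CPM in low growth, against 2283, 4149.6 and 7480.0 CPM in high growth. FABP6 was thus high in every library. Of the markers of other gut regions, the pancreatic PNLIP and the hindgut HOXD12 had 0 counts in all 12. Others were present, and the tested members together summed to 393 to 1301 CPM in low growth, against 493 to 764 CPM in high growth. Spearman correlations between libraries lay between 0.940 and 0.990. On the main axis of variation, which held 29.4% of the variance, high growth replicate 2 and low growth replicate 1 stood lowest, with scores of -63.3 and -39.4. Y-linked genes (KDM5D and EIF1AY) exceeded 1 CPM in 1 of 6 low growth libraries and in 3 of 6 high growth libraries. With this split as a covariate no gene passed the adjusted test either, and 1603 genes in place of 745 had an unadjusted p under 0.05.

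No gene differed between low and high growth ileum on day 39 beyond the spread between replicates once all genes were considered. With edgeR's quasi-likelihood test, 0 of 14584 genes (0%) had a Benjamini-Hochberg adjusted p under 0.05, and the lowest adjusted p was 0.814. At an unadjusted p under 0.05 there were 745 genes, or 5.11% of those tested. Of them 401 (2.75%) were higher in low growth and 344 (2.36%) lower. On the authors' normalized table, tested with limma, that split was 449 higher and 254 lower. DESeq2 called 11 genes, 9 higher and 2 lower in low growth. It was run without the filter on low counts used for edgeR, so its 11 and the 0 of edgeR cover different sets of genes. The sets also share genes on which the tests differ. B3GALT2, SLC6A6, ADAMTS3 and RFLNA were tested in both and called by DESeq2 only. Without that filter edgeR called 1 gene. Of the DESeq2 calls, 2 identifiers were picked after the values were seen. ENSSSCG00000009499 did not pass that filter and was the 1 gene that edgeR called without it. ENSSSCG00000051166 had a log2 fold change of 22.95 in DESeq2. Its counts are not given here, so how many libraries this value rests on is not shown. With limma's voom 0 genes were called, and 685 had an unadjusted p under 0.05. Each gene named below that passed the filter had an adjusted p of at least 0.814 in the edgeR fit of all 12 libraries. Each difference is therefore given as a value and none as a change.

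The precision of the comparison can be read from the errors. The median standard error (SE) of a log2 fold change was 0.17 over all genes tested, and 0.13 over the 6555 genes with a mean log2 CPM of at least 5. All fold changes are low over high growth on the log2 scale, so a positive value is higher in low growth. Their median over all genes was -0.0041, with 49.3% above 0 and 50.7% below. For 26 genes (0.178%) all 6 low growth libraries lay outside the range of the 6 high growth libraries. With arbitrary labels a single gene separates 6 from 6 libraries with a probability of 0.00216, and the share found was not above that. These were 14 genes with every low growth value higher (0.096%) and 12 with every one lower (0.0823%).

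**Figure D1:**
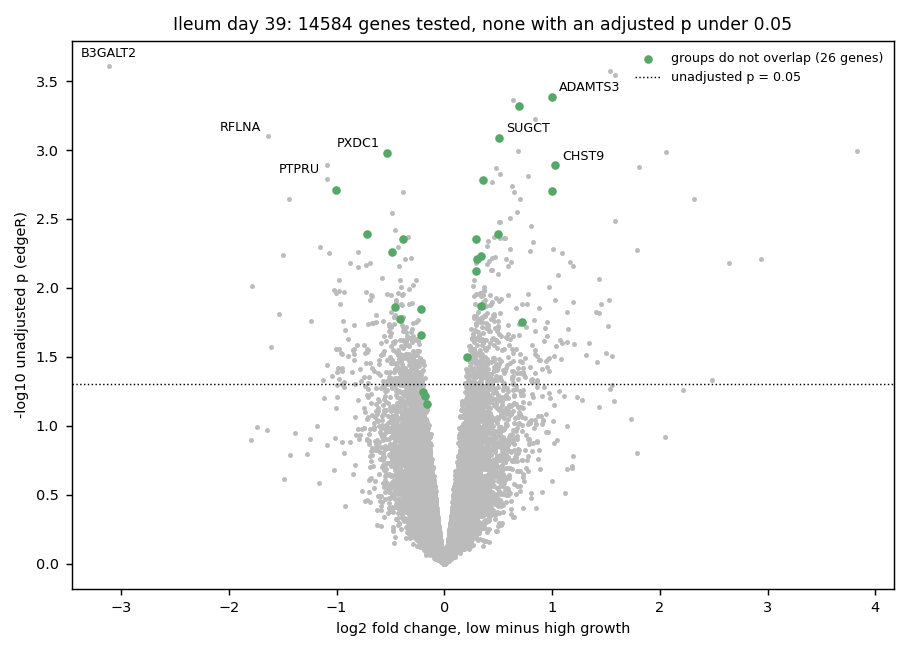
Log2 fold change (low over high growth, horizontal) against −log10 of the unadjusted edgeR p (vertical) for the 14584 genes tested in ileum of day 39. Each point is a gene, green points are the 26 genes whose groups do not overlap, and no gene reached an adjusted p under 0.05, the lowest being 0.814.

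B3GALT2, the named gene of lowest p, is a galactosyltransferase of glycan synthesis encoded on chromosome 10 from 613464 to 623587 (Sscrofa11.1). B3GALT2 had 0.500, 2.24 and 3.01 CPM in low growth, against 1.69, 16.2 and 38.1 CPM in high growth. All 6 low growth libraries stood below the high growth median, and of the high growth libraries 1, at 1.69 CPM, fell within the low growth range and the next lowest, at 3.25 CPM, lay just above it. Its log2 fold change was -3.11 ± 0.65 (SE), and leaving out each library in turn gave values between -3.35 and -2.70. DESeq2 called B3GALT2 with an adjusted p of 0.0174. The exact two-sided permutation p for B3GALT2 alone, with n = 6 each, was 0.0195, where 0.00216 is the smallest possible.

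SLC6A6 carries taurine, an amino acid with which bile acids can be conjugated, into cells, and lies on chromosome 13 from 70094073 to 70173581. Its values were 55.7, 74.7 and 97.4 CPM in low growth, against 35.7, 47.4 and 59.2 CPM in high growth. The groups overlapped only through the lowest low growth and the highest high growth library, all 6 low growth values exceeded the high growth median, and the log2 fold change was 0.64 ± 0.14. ADAMTS3, a protease that processes procollagen and the lymphatic growth factor VEGF-C, had 2.12, 2.94 and 3.73 CPM in low growth, against 1.04, 1.53 and 1.86 CPM in high growth. The groups of ADAMTS3 did not overlap, with a log2 fold change of 1.0 ± 0.22. DESeq2 gave adjusted p values of 0.04998 for SLC6A6 and 0.0421 for ADAMTS3.

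RNF128, an E3 ubiquitin ligase described in T cell unresponsiveness, had 17.8, 23.7 and 31.3 CPM in low growth, against 12.03, 14.3 and 17.5 CPM in high growth. Every low growth library was higher than every high growth library, and the log2 fold change was 0.69 ± 0.15. RFLNA, a regulator of the actin crosslinker filamin, had 0.420, 1.05 and 2.12 CPM in low growth, against 1.82, 3.05 and 5.61 CPM in high growth. It was scarce in both groups, which overlapped, and its log2 fold change was -1.64 ± 0.39, with an adjusted p of 0.0421 in DESeq2. CRABP1, a carrier of retinoic acid, is named after its values were seen, because DESeq2 called it at a log2 fold change of 3.41 with an adjusted p of 0.0421. Its CPM values are not given here, so how many libraries this rests on is not shown.

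The 15 genes with a symbol and the lowest p also held OXCT1, IDH1, SUGCT and SLC27A2. OXCT1, which lets tissues burn ketone bodies, had 46.1, 55.9 and 68.1 CPM in low growth, against 35.9, 40.3 and 52.9 CPM in high growth. The groups overlapped and the log2 fold change was 0.48 ± 0.12. IDH1, the cytosolic isocitrate dehydrogenase that makes NADPH, had 217, 248 and 289 CPM in low growth, against 184, 194 and 216 CPM in high growth, without overlap and with a log2 fold change of 0.36 ± 0.093. SUGCT, a coenzyme A transferase of glutarate metabolism, also had groups that did not overlap, and its log2 fold change was 0.50 ± 0.12. SLC27A2, an acyl-CoA synthetase for long fatty acids, had 4.72, 8.01 and 8.78 CPM in low growth, against 2.97, 4.59 and 6.06 CPM in high growth. Its groups overlapped through low growth replicate 4, which stood well below the other 5 low growth libraries, and the log2 fold change was 0.77 ± 0.20.

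PAPSS2 makes the sulfate donor used by sulfotransferases, and CHST9 is one of those enzymes, acting on N-acetylgalactosamine of glycans. The log2 fold change was 0.68 ± 0.17 for PAPSS2, with overlap, and 1.02 ± 0.26 for CHST9, without overlap. PRKAB2, a regulatory subunit of the energy sensor AMPK, had 42.00, 53.2 and 60.9 CPM in low growth, against 27.9, 37.8 and 43.1 CPM in high growth, with a log2 fold change of 0.52 ± 0.13. On the other side, PXDC1 had 152, 193 and 234 CPM in low growth, against 243, 268 and 359 CPM in high growth. Its groups did not overlap, high growth replicate 2 stood far above the other high growth libraries, and the log2 fold change was -0.53 ± 0.13. F2RL3, a thrombin receptor of platelets, and PTPRU, a receptor tyrosine phosphatase, had log2 fold changes of -1.09 ± 0.27 and -1.09 ± 0.28, both with overlapping groups.

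**Figure D2:**
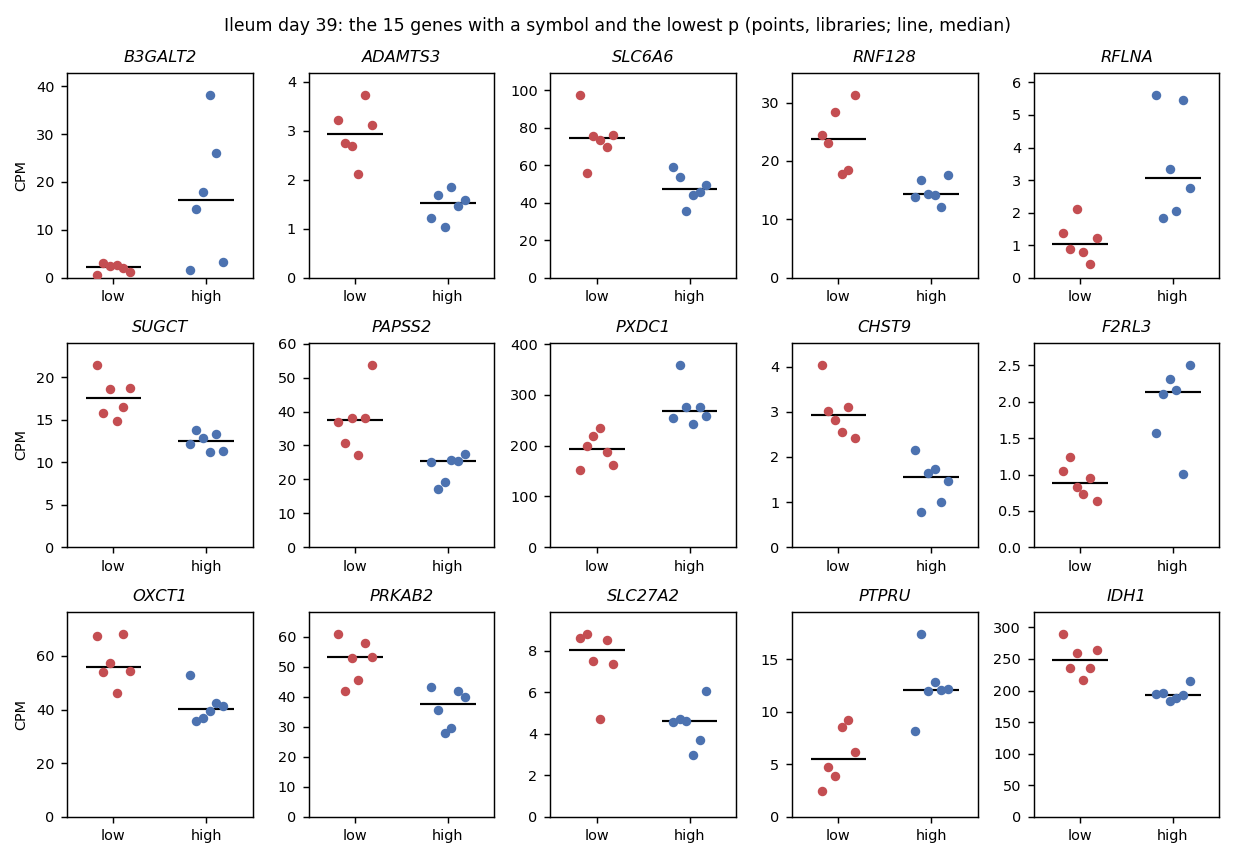
CPM (vertical, linear, from 0, each panel on its own scale) of the 15 genes with a symbol and the lowest p in low growth (left) and high growth (right) ileum. Points are the 6 libraries of a group and lines are medians; B3GALT2 has a median of 2.24 CPM in low growth, against 16.2 CPM in high growth, where its libraries spread from 1.69 to 38.1 CPM.

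Of the 26 genes whose groups did not overlap, 23 carried a symbol, 11 higher and 12 lower in low growth, and 2 of the 26 were on a gene list used here. FASN, the fatty acid synthase, had 181, 206 and 213 CPM in low growth, against 215, 221 and 243 CPM in high growth, a narrow gap with a log2 fold change of only -0.17 ± 0.085. ASCL2, a transcription factor of crypt stem cells, had 2.87, 3.63 and 4.17 CPM in low growth, against 4.27, 5.10 and 5.55 CPM in high growth, and its log2 fold change was -0.46 ± 0.16. SLC30A9, a zinc transporter, had 41.1, 43.6 and 46.1 CPM in low growth, against 28.9, 36.3 and 39.98 CPM in high growth, with a log2 fold change of 0.29 ± 0.094. CEMIP2, which degrades hyaluronan, had 43.5, 53.7 and 56.4 CPM in low growth, against 23.9, 40.01 and 43.2 CPM in high growth, with a log2 fold change of 0.49 ± 0.14. Most of these differences were small, and a gap between groups says nothing of its width.

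The 48 gene lists below cover the cell types and functions of the ileal wall, and 875 of their 940 genes in the table passed the filter on low counts. Of these 875, 55 had an unadjusted p under 0.05, or 6.29% against 5.11% of all genes, with 37 higher and 18 lower in low growth. The lists were chosen with earlier results of these data known, so these shares are a description and no test. Each list is described by how many tested members lay above or below 0 and by its median log2 fold change, beside 49.3% above 0 and a median of -0.0041 over all genes. No member of any list passed the adjusted test in edgeR, while DESeq2 called SLC6A6, a member of the peptide and amino acid transporter list. Leaving out single libraries changed the sign of the median for 23 of the 48 lists. Among named genes with a log2 fold change at least 0.2 from 0, the value of 47 changed in sign or by over 1.5 times when a library was left out.

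**Figure D3:**
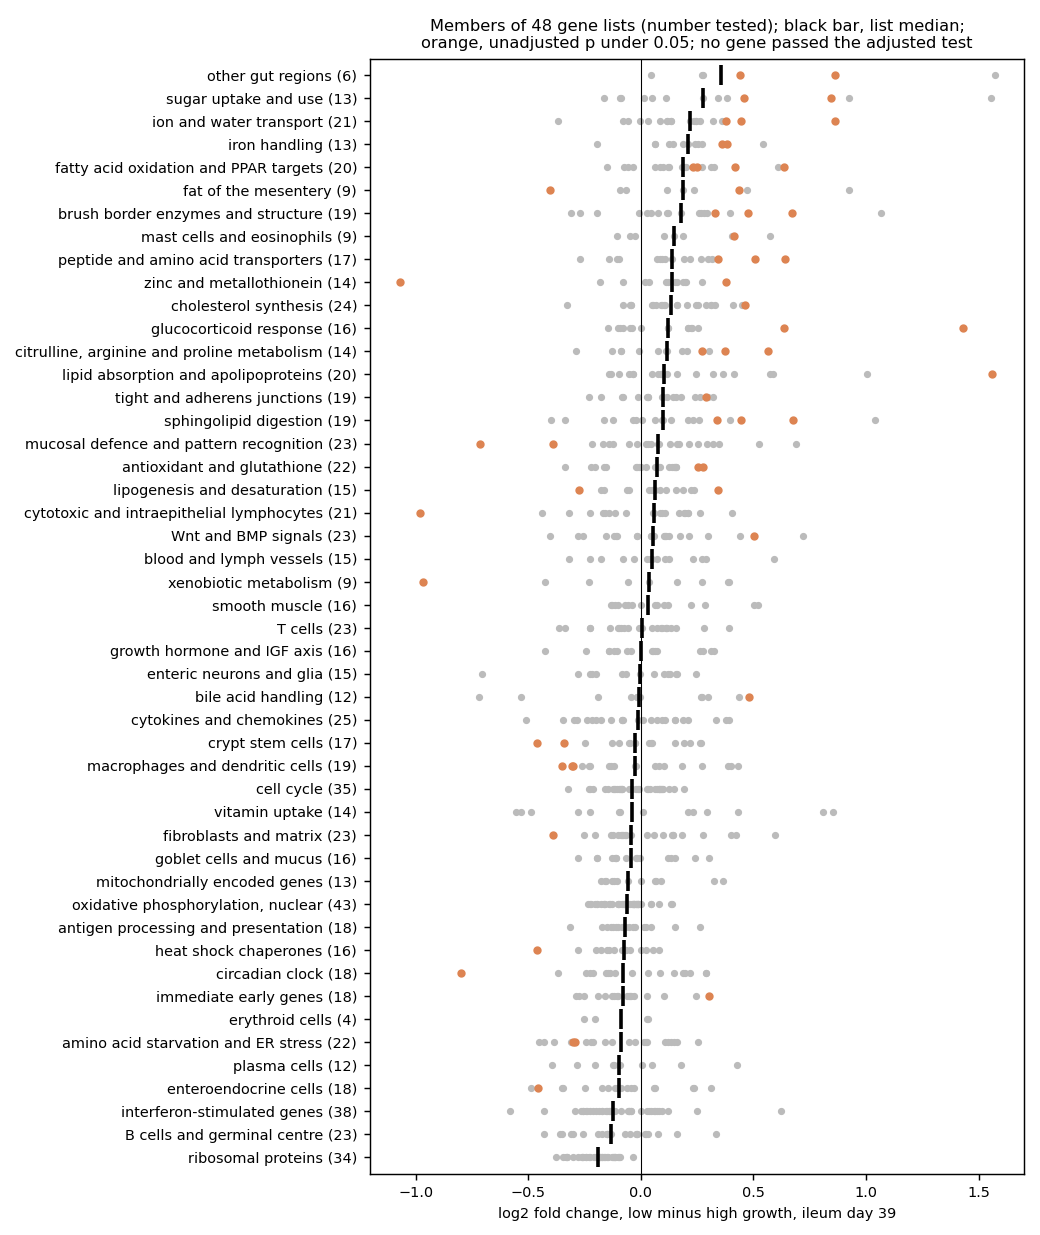
Log2 fold change (low over high growth) of each tested member of 48 gene lists, sorted by list median, with the number of members tested in brackets. Grey and orange points are genes, orange where the unadjusted p is under 0.05, and black bars are medians, which run from 0.36 for markers of other gut regions to -0.19 for ribosomal proteins.

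Brush border genes lay mostly above 0 in low growth ileum. Of the tested members 15 of 19 were above 0, the median was 0.18, and 3 had an unadjusted p under 0.05, all higher. SI, the sucrase-isomaltase that splits sucrose and starch fragments, had 949, 1099 and 1292 CPM in low growth, against 597, 782 and 1025 CPM in high growth. The groups overlapped although all 6 low growth libraries lay above the high growth median, and the log2 fold change was 0.47 ± 0.15. MME, the peptidase neprilysin, had 130.7, 195 and 246 CPM in low growth, against 84.7, 105.4 and 172 CPM in high growth, with overlap and a log2 fold change of 0.67 ± 0.19. ANPEP, aminopeptidase N, had 3674, 4154 and 5194 CPM in low growth, against 2854, 3549 and 5428 CPM in high growth, with a log2 fold change of 0.11 ± 0.16 and a 95% confidence interval of -0.23 to 0.46. The peptidase ENPEP was at 0.33 and ACE, angiotensin-converting enzyme, at 1.07, while enteropeptidase (TMPRSS15) was at -0.31.

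The brush border median moved with the libraries included. Without low growth replicate 1 it was 0.045, and without both this library and high growth replicate 2 it was 0.15. In that library the mean log2 CPM of the list was 8.62, against 7.87 to 8.46 in the other low growth libraries. The same library was the lowest of all 12 for fibroblast and matrix genes, at 6.50, and for smooth muscle genes, at 6.53, and the part of this in the result was not tested.

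Genes of sugar uptake and use showed a similar picture, with 10 of 13 above 0 and a median of 0.28. SLC5A1, the sodium-coupled glucose transporter of the brush border, had 823, 1059 and 1455 CPM in low growth, against 699, 899.5 and 1079.9 CPM in high growth. Its groups overlapped, 5 of 6 low growth libraries stood above the high growth median, and the log2 fold change was 0.34 ± 0.17. SLC2A2, which releases glucose to the blood, was at 0.015 ± 0.25, and the fructose transporter SLC2A5 was at 0.11 ± 0.22. The hexose transporter SLC2A7 was at 0.84 ± 0.35, with an unadjusted p under 0.05, and at 0.43 without low growth replicate 1. G6PC1 and PCK1, enzymes of glucose production, had the highest values of the list, 1.55 and 0.92. Without low growth replicate 6 the list median was 0.14.

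Of the peptide and amino acid transporters 13 of 17 lay above 0, with a median of 0.14. SLC1A1, the glutamate and aspartate transporter, had 221, 308 and 410.1 CPM in low growth, against 155, 214 and 285 CPM in high growth, and its log2 fold change was 0.50 ± 0.18 with overlapping groups. SLC15A1, the transporter of short peptides known as PEPT1, had 137.9, 182 and 389.6 CPM in low growth, against 130.9, 185 and 244 CPM in high growth. Here the groups lay on top of each other at a log2 fold change of 0.22 ± 0.26, with an interval of -0.33 to 0.77, and at -0.040 without low growth replicate 1. SLC7A7, which exports cationic amino acids across the basal membrane, was at 0.34, and SLC3A2, its partner chain, at -0.27.

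The small intestine of pigs makes citrulline, the precursor of arginine for the body, from glutamine and proline. Values of 3 enzymes that make it lay above 0. CPS1, which forms carbamoyl phosphate, had 299.6, 363 and 489 CPM in low growth, against 184, 256 and 342 CPM in high growth, with all 6 low growth values above the high growth median and a log2 fold change of 0.56 ± 0.17. OTC, which joins carbamoyl phosphate to ornithine, had 52.9, 77.2 and 88.6 CPM in low growth, against 52.8, 56.95 and 65.4 CPM in high growth, with a log2 fold change of 0.37 ± 0.13. OAT, the aminotransferase that yields ornithine, was at 0.27. These 3 had an unadjusted p under 0.05, and over the whole list 9 of 14 lay above 0 with a median of 0.11, or 0.050 without low growth replicate 1.

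Genes of bile acid handling, the function most particular to the ileum, had a median of -0.0085, with 5 of 12 above 0. SLC10A2, the apical bile acid transporter, had 93.9, 248 and 513 CPM in low growth, against 139.4, 228 and 289 CPM in high growth. The low growth libraries spread more widely on both sides, and the log2 fold change was 0.30 ± 0.30, or 0.0088 without low growth replicate 1. FABP6 was at -0.015 ± 0.27, with an interval of -0.59 to 0.56. That interval is for FABP6 alone and is not adjusted for the number of genes tested. A difference within it in either direction cannot be told from 0 here. NR1H4, the bile acid receptor FXR, had 85.3, 158 and 225 CPM in low growth, against 80.1, 118.6 and 137.3 CPM in high growth, and its log2 fold change of 0.48 ± 0.21 had an unadjusted p under 0.05. FGF19, the hormone that FXR induces and that curbs bile acid synthesis in the liver, had 0.383, 1.82 and 11.04 CPM in low growth, against 0.631, 5.07 and 9.23 CPM in high growth. Its lowest and highest libraries lay far apart in each group, and the log2 fold change was -0.72 ± 0.74, or -1.78 without low growth replicate 1.

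Fat absorption genes lay above 0 in 14 of 20 cases, with a median of 0.10, or 0.051 without low growth replicate 1. The apolipoproteins that coat chylomicrons gave the highest values of the list. APOC3 had 34.5, 142.7 and 331 CPM in low growth, against 13.5, 35.2 and 137.2 CPM in high growth, with a log2 fold change of 1.56 ± 0.65. APOB had 344, 557 and 722 CPM in low growth, against 177, 337 and 623 CPM in high growth, with a log2 fold change of 0.58 ± 0.28. APOA4 had 181, 361 and 2028 CPM in low growth, against 156, 339 and 547 CPM in high growth, with group medians close to each other and a log2 fold change of 1.0 ± 0.56, or 0.21 without low growth replicate 1. FABP2, the intestinal fatty acid binding protein, was at 0.36 ± 0.35, and MTTP, which loads lipid onto APOB, at 0.42.

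Fatty acid oxidation genes and targets of the receptor PPARα lay above 0 in 16 of 20 cases, with a median of 0.19, or 0.12 without low growth replicate 1. EHHADH, a peroxisomal enzyme of fatty acid oxidation, had 47.98, 54.7 and 59.8 CPM in low growth, against 25.8, 43.02 and 52.4 CPM in high growth, and its log2 fold change was 0.42 ± 0.17. PDK4, the kinase that blocks pyruvate oxidation, was at 0.63 ± 0.30. PPARA itself was at 0.61. Of the genes of fat synthesis, SREBF1, their transcription factor, had 68.04, 87.9 and 99.5 CPM in low growth, against 86.9, 107.1 and 128.2 CPM in high growth, with a log2 fold change of -0.27 ± 0.12. ELOVL6, a fatty acid elongase, was at 0.34 ± 0.16, and the list of fat synthesis as a whole had a median of 0.061.

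Cholesterol synthesis genes were above 0 in 19 of 24 cases, with a median of 0.13 and a single member at an unadjusted p under 0.05. That member was STARD4, a cholesterol carrier of the cytosol, with 54.5, 66.6 and 85.4 CPM in low growth, against 32.7, 48.9 and 70.7 CPM in high growth and a log2 fold change of 0.46 ± 0.17. HMGCS1, the synthase ahead of the rate-limiting step, was at 0.31 ± 0.16. The list median was 0.074 without low growth replicate 3. Among genes that handle sphingolipids 13 of 19 lay above 0, with a median of 0.10. SGMS1, a sphingomyelin synthase, was at 0.44 ± 0.14, and SPTLC1, a subunit of the enzyme that starts sphingolipid synthesis, at 0.34 ± 0.14. ENPP7, the sphingomyelinase of the gut lumen, was at 1.04. It ran from 1.88 to 48.5 CPM in low growth, against 2.19 to 9.27 CPM in high growth, so its groups overlapped.

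Iron handling genes lay above 0 in 12 of 13 cases, with a median of 0.21. HEPH, the ferroxidase that helps iron out of enterocytes, had 56.9, 75.9 and 99.8 CPM in low growth, against 47.5, 56.05 and 75.01 CPM in high growth, with a log2 fold change of 0.36 ± 0.15. ACO1, the cytosolic iron sensor, had 82.3, 112.99 and 153 CPM in low growth, against 73.7, 86.8 and 101.97 CPM in high growth, with a log2 fold change of 0.38 ± 0.14, and the iron importer SLC11A2 was at 0.54. Without high growth replicate 2, which had the lowest mean of the list at 5.95, the list median was 0.14. Zinc genes were above 0 in 11 of 14 cases, with a median of 0.14, or 0.068 without high growth replicate 2. The zinc transporters SLC30A4 and SLC30A2 gave log2 fold changes of 0.38 ± 0.14 and -1.07 ± 0.33. SLC30A2 was at or below 1.40 CPM in every library.

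Ion and water transport genes were above 0 in 17 of 21 cases, with a median of 0.22. SLC4A4, a sodium bicarbonate cotransporter, had 85.6, 108.6 and 130.9 CPM in low growth, against 68.04, 80.9 and 108.7 CPM in high growth, with a log2 fold change of 0.38 ± 0.13, and the aquaporin AQP11 was at 0.45 ± 0.16. GUCA2B, which encodes the peptide uroguanylin, was at -0.37. Vitamin uptake genes were split evenly, with 7 of 14 above 0 and a median of -0.042. VDR, the vitamin D receptor, was at 0.43 ± 0.20, and LRAT, which stores vitamin A as esters, at -0.53 ± 0.25. The mean log2 CPM of the vitamin list spread from 4.07 to 5.10 over the low growth libraries, against 4.61 to 4.70 over the high growth libraries.

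All tested genes of cytosolic ribosomal proteins lay below 0 in low growth, 34 of 34 with a median of -0.19, and none had an unadjusted p under 0.05. RPS16, a protein of the small ribosomal subunit, had 316, 369 and 382 CPM in low growth, against 333, 389.5 and 599 CPM in high growth, and its log2 fold change was -0.24 ± 0.14 with overlapping groups. RPS9, also of the small subunit, was at -0.35 ± 0.20. The mean log2 CPM over the list was 9.24, 9.51 and 9.62 in low growth, against 9.41, 9.49 and 10.2 in high growth. The low growth and high growth medians were thus close, and high growth replicates 2 and 3 stood above every other library, at 10.2 and 9.88. Without high growth replicate 2 the list median was -0.061.

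Subunits of oxidative phosphorylation encoded in the nucleus lay below 0 in 37 of 43 cases, with a small median of -0.061. NDUFS1, a core subunit of complex I, was at 0.14 ± 0.094 and SDHC, a subunit of complex II, at 0.13 ± 0.091. The median moved to 0.031 without high growth replicate 2. Genes of the mitochondrial genome were below 0 in 8 of 13 cases, with a median of -0.057. ND5, a complex I subunit, was at 0.32 ± 0.22, and that median was 0.043 without high growth replicate 3.

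**Figure D4:**
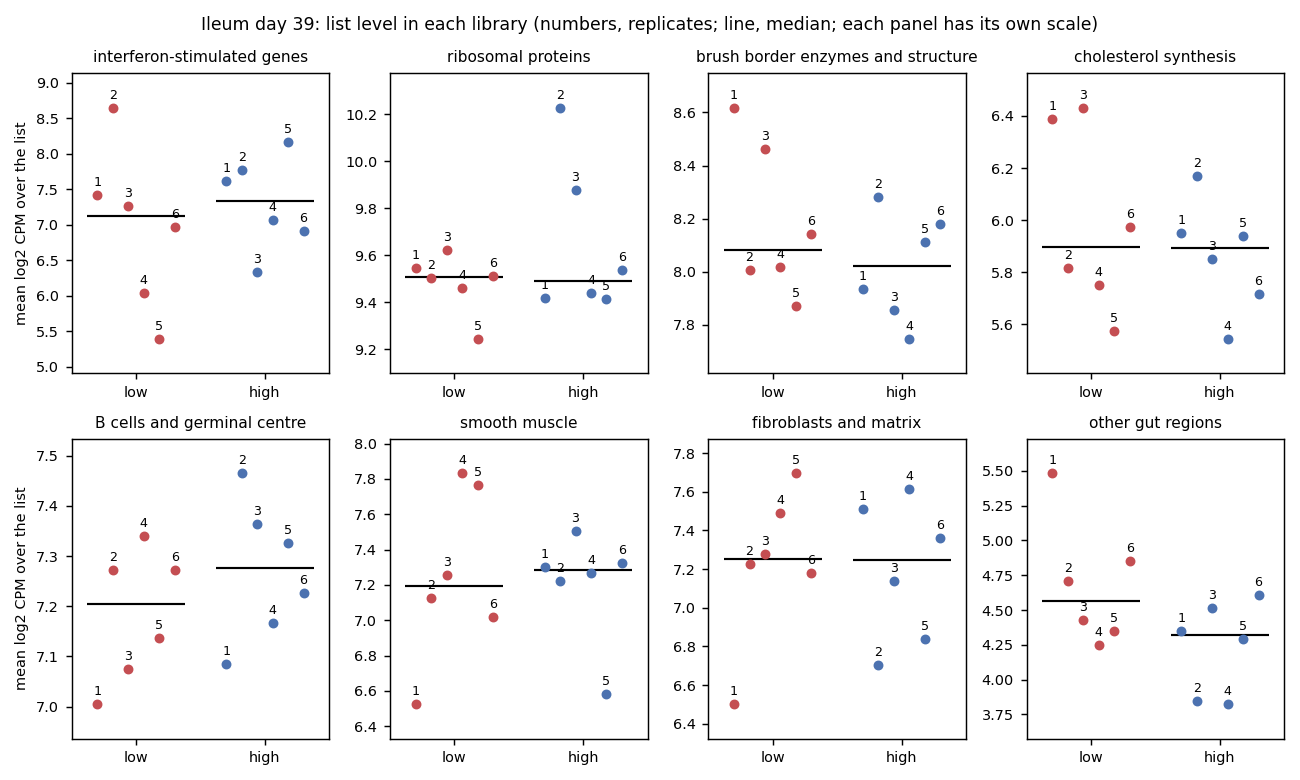
Mean log2 CPM over the tested members of 8 gene lists in each library of low growth (left in each panel) and high growth (right) ileum, with replicate numbers and group medians as lines, each panel on its own scale. Interferon-stimulated genes spread from 5.40 to 8.65 within low growth alone, high growth replicate 2 stands highest for ribosomal proteins at 10.2, and low growth replicate 1 stands lowest for fibroblast and smooth muscle genes.

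Crypt stem cell genes gave a median of -0.025, with 9 of 17 below 0, and both members at an unadjusted p under 0.05 were lower in low growth. ASCL2 was described above, and SMOC2, a secreted matrix protein of crypt base cells, had 37.5, 46.8 and 63.7 CPM in low growth, against 49.03, 62.6 and 76.2 CPM in high growth, with a log2 fold change of -0.34 ± 0.14. LGR5, the receptor that marks crypt stem cells, had 1.30, 2.43 and 3.05 CPM in low growth, against 0.981, 2.17 and 3.25 CPM in high growth. It was near the same level in both groups, at a log2 fold change of 0.035 ± 0.29. OLFM4, another crypt base gene, was at 0.19 ± 0.18. Cell cycle genes lay below 0 in 21 of 35 cases with a median of -0.039, and the replication helicase subunits MCM7 and MCM5 were at -0.21 ± 0.14 and -0.32 ± 0.21. Without high growth replicate 2 these values were -0.084 for MCM7 and -0.059 for MCM5. Among Wnt and BMP signals, WNT5A, a ligand of the mesenchyme, had 6.64, 7.81 and 8.97 CPM in low growth, against 3.74, 5.14 and 7.42 CPM in high growth, with a log2 fold change of 0.50 ± 0.19, and the list median was 0.055, or -0.0996 without low growth replicate 5.

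Most tested genes of secretory cells lay below 0 in low growth, with small list medians. Goblet cell genes lay below 0 in 11 of 16 cases with a median of -0.044, or -0.17 without low growth replicate 1. MUC2, the main secreted mucin, had 332, 386 and 1215 CPM in low growth, against 381, 555 and 833 CPM in high growth. Its log2 fold change was -0.12 ± 0.31, or -0.56 without low growth replicate 1. CLCA1, a secreted goblet cell protein, was at 0.30 ± 0.17. Enteroendocrine genes lay below 0 in 13 of 18 cases with a median of -0.10. NTS, the ileal peptide neurotensin, had 16.1, 18.3 and 25.7 CPM in low growth, against 14.7, 29.5 and 36.4 CPM in high growth, with a log2 fold change of -0.45 ± 0.21. CHGA, the granule protein chromogranin A, was at -0.25 ± 0.19, GCG, the precursor of GLP-1 and GLP-2, at 0.24 ± 0.22, and CCK, which slows food intake, at 0.060 ± 0.18. Somatostatin (SST) was at 0.062 ± 0.14.

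Tight and adherens junction genes were above 0 in 14 of 19 cases, with a median of 0.10. OCLN, occludin, had 62.2, 70.4 and 75.6 CPM in low growth, against 41.6, 57.2 and 69.3 CPM in high growth, and its log2 fold change was 0.29 ± 0.12. PATJ, a scaffold of the junction, was at 0.32 ± 0.16. The 7 claudins tested ran from -0.23 for CLDN23 to 0.12 for CLDN2, the pore-forming claudin.

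Interferon-stimulated genes were the list that varied most between libraries. The mean log2 CPM over the list was 5.40, 7.12 and 8.65 in low growth, against 6.34, 7.34 and 8.17 in high growth. Low growth replicate 2 held the highest level of all 12 libraries and low growth replicate 5 the lowest, so the spread within low growth covered that of high growth. The list median was -0.12 with 26 of 38 below 0 and no member at an unadjusted p under 0.05. It was -0.58 without low growth replicate 2 and 0.11 without high growth replicate 5. IFIT2, an antiviral protein, had 27.8, 44.6 and 381 CPM in low growth, against 28.2, 48.2 and 139.7 CPM in high growth, with a log2 fold change of 0.62 ± 0.65, or -0.46 without low growth replicate 2. IRF9, which carries the interferon signal to the nucleus, was at -0.19 ± 0.19.

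B cell and germinal centre genes, which mark the Peyer's patch, lay below 0 in 17 of 23 cases with a median of -0.13. CD79A, a chain of the B cell receptor, had 301, 399 and 418 CPM in low growth, against 362, 405 and 683 CPM in high growth. The medians were close, and the log2 fold change was -0.31 ± 0.17. BLK, a kinase of that receptor, had 77.7, 96.3 and 114.4 CPM in low growth, against 92.5, 115.4 and 159 CPM in high growth. Every low growth library lay under the median of high growth, and the log2 fold change was -0.30 ± 0.15. Without high growth replicate 2 the list median was -0.067. Plasma cell genes had a median of -0.10, and JCHAIN, which joins immunoglobulin A into dimers, was at -0.10 ± 0.27. PIGR, the receptor that carries those dimers across the epithelium, was at 0.32 ± 0.22. The summed level of the B cell list was 4128 to 5027 CPM in low growth, against 4145 to 6738 CPM in high growth. With the list's level as a covariate no gene passed the adjusted test in edgeR, and 363 had an unadjusted p under 0.05.

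T cell genes had a median of 0.0072, with 12 of 23 above 0. CD3D, a chain of the T cell receptor complex, was at 0.28 ± 0.15 and CD5, an inhibitor of that receptor, at -0.33 ± 0.21. Of the cytotoxic and intraepithelial lymphocyte genes 12 of 21 were above 0. NCR1, an activating receptor of natural killer cells, had 0.473, 0.620 and 1.14 CPM in low growth, against 0.551, 1.56 and 1.81 CPM in high growth, with a log2 fold change of -0.98 ± 0.33 at a very low level. The list median was 0.060.

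Macrophage and dendritic cell genes had a median of -0.026, and its 3 members with an unadjusted p under 0.05 were the 3 chains of complement C1q, all lower in low growth. C1QA had 245, 269 and 325 CPM in low growth, against 282, 332 and 498 CPM in high growth. All 6 low growth libraries lay below the high growth median, and the log2 fold change was -0.35 ± 0.14. C1QC was at -0.30 ± 0.13 and C1QB at -0.31, whereas the scavenger receptor CD163 was at 0.082 and the mannose receptor MRC1 at 0.39. Mast cell and eosinophil genes had a median of 0.15, and MS4A2, a chain of the immunoglobulin E receptor, was at 0.41 ± 0.19. High growth replicate 2 held the lowest level of this list, at a mean log2 CPM of 2.02.

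Genes of mucosal defence lay above 0 in 15 of 23 cases with a median of 0.077, but the 2 members with an unadjusted p under 0.05 were lower in low growth. PGLYRP1, which binds bacterial peptidoglycan, had 1.72, 2.03 and 3.27 CPM in low growth, against 1.87, 3.17 and 5.33 CPM in high growth, with a log2 fold change of -0.71 ± 0.27. TLR9, the receptor for bacterial DNA, was at -0.39 ± 0.17. Cytokine and chemokine genes had a median of -0.013, with the cytokine TGFB1 at -0.24 ± 0.12 and the chemokine CXCL14 at -0.20 ± 0.12. Without low growth replicate 2 that median was -0.21. For antigen presentation the median was -0.070, and CD74, the chaperone of class II molecules, was at -0.32 ± 0.24, or -0.033 without high growth replicate 2.

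The layers below the epithelium varied more within groups than between them. Smooth muscle genes had a median of 0.032, with 9 of 16 above 0. Over the list the mean log2 CPM was 6.53, 7.19 and 7.83 in low growth, against 6.58, 7.28 and 7.51 in high growth, so the groups overlapped throughout. DES, the muscle filament desmin, had 378, 487 and 953 CPM in low growth, against 235, 572 and 846 CPM in high growth, with a log2 fold change of 0.070 ± 0.28. Without low growth replicate 4 the list median was -0.13, and without low growth replicate 1 it was 0.15. With the list's level as a covariate no gene passed the adjusted test in edgeR, and 869 had an unadjusted p under 0.05. Fibroblast and matrix genes had a median of -0.042. COL6A1, a collagen of the cell surface matrix, had 475, 509 and 523 CPM in low growth, against 391, 701 and 871 CPM in high growth, with a log2 fold change of -0.39 ± 0.15, and LOX, which crosslinks collagen, was at 0.60 ± 0.31.

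Vessel genes had a median of 0.049, with the endothelial PLVAP at -0.32 ± 0.15 and the lymphatic LYVE1 at 0.27 ± 0.15. Enteric neuron and glia genes had a median of -0.0045, and GAL, the neuropeptide galanin, had 1.34, 2.23 and 4.31 CPM in low growth, against 1.80, 3.91 and 5.77 CPM in high growth, with a log2 fold change of -0.71 ± 0.34. HBB, a globin chain that marks blood left in the piece, was at -0.20 ± 0.42, with values from -0.73 to -0.0050 when each library was left out. Of the fat markers, LPL, the lipase of the vessel wall, was at 0.44 ± 0.20 and LIPE, the hormone-sensitive lipase, at -0.40 ± 0.16. The fat-cell hormone LEP was at or below 0.0579 CPM in every library. The median of the fat list was 0.19, and -0.017 without low growth replicate 1.

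Of 14 listed markers of other gut regions 6 were tested. All 6 lay above 0, with the highest median of the 48 lists, 0.36. AQP8, an aquaporin of the large intestine, had 58.4, 197 and 562 CPM in low growth, against 76.3, 121.8 and 201 CPM in high growth, with a log2 fold change of 0.86 ± 0.40, or 0.40 without low growth replicate 1. CA1, the carbonic anhydrase of colonocytes, ran from 0.370 to 8.66 CPM in low growth, against 0.0697 to 2.21 CPM in high growth. GATA4, a transcription factor of the upper small intestine, ran from 0.485 to 4.76 CPM in low growth, against 0.676 to 1.74 CPM in high growth. The summed level of the list was 393 to 1301 CPM in low growth, against 493 to 764 CPM in high growth. Low growth replicate 1 held the highest mean of the list. The highest values of AQP8, CA1 and GATA4 fell short of the highest sums, so other members made up the rest. Where along the ileum a piece was cut is not in the labels, and its part in the results was not tested.

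Of the responses to hormones and stress, glucocorticoid response genes had a median of 0.12, or 0.061 without low growth replicate 3. ZBTB16, a transcription factor strongly induced by glucocorticoids, had 0.727, 3.95 and 9.61 CPM in low growth, against 0.701, 1.86 and 2.08 CPM in high growth. Of the low growth libraries 5 of 6 stood above the high growth median, and the log2 fold change was 1.43 ± 0.47. HSD11B2, which inactivates cortisol, was at -0.14 ± 0.16, and FKBP5, another induced gene, at 0.21. The growth hormone and IGF axis had a median of 0.0014. IGF1, the insulin-like growth factor, was at -0.12 ± 0.24, its receptor IGF1R at 0.31 ± 0.18, and IRS2, an adaptor of both insulin and IGF receptors, at 0.33 ± 0.19.

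Clock genes had a median of -0.077. DBP, an output gene of the clock, had 6.03, 8.81 and 12.8 CPM in low growth, against 8.72, 16.2 and 22.3 CPM in high growth. No low growth library reached the median of high growth, and the log2 fold change was -0.80 ± 0.25. BHLHE41, a repressor within the clock, was at -0.37 ± 0.17. Immediate early genes lay below 0 in 14 of 18 cases with a median of -0.081, and the transcription factor KLF6, the member with the lowest p, was at 0.30 ± 0.14. Heat shock genes lay below 0 in 12 of 16 cases with a median of -0.077, and the small chaperone HSPB1 was at -0.46 ± 0.20.

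CYP1A1, the enzyme induced by ligands of the aryl hydrocarbon receptor from feed and microbes, had 1.66, 3.36 and 5.88 CPM in low growth, against 2.48, 7.43 and 10.1 CPM in high growth. All 6 low growth libraries lay below the high growth median, the groups overlapped, and the log2 fold change was -0.97 ± 0.34. The other 8 tested genes of xenobiotic metabolism had an unadjusted p of at least 0.05, and the list median was 0.034, or -0.078 without low growth replicate 4. Among genes of amino acid starvation and endoplasmic reticulum stress, MANF and CRELD2, secreted or luminal proteins of that stress response, were at -0.29 ± 0.12 and -0.30 ± 0.14, and the list median was -0.089. Antioxidant genes had a median of 0.072, or -0.011 without low growth replicate 3, with GCLC, which limits glutathione synthesis, at 0.25 ± 0.11 and the mitochondrial dismutase SOD2 at 0.27 ± 0.13.

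Whether the growth difference of day 39 differed from that of day 7 was tested as an interaction over all 24 ileum libraries. With edgeR 0 of 15256 genes (0%) passed the adjusted test, and the lowest adjusted p, of an identifier without a symbol, was 0.428. An unadjusted p under 0.05 was found for 459 genes (3.01%), of which 377 (2.47%) had a day 39 difference above that of day 7. DESeq2 called 2 genes. In the same model low against high growth gave an unadjusted p under 0.05 for 162 genes (1.06%) on day 39 and 862 genes (5.65%) on day 7. Over all genes 54.6% lay above 0 in this test, with a median of 0.046.

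Of the 48 lists, cholesterol synthesis genes held the largest share of members with an unadjusted p under 0.05 in this test. In this list 23 of 24 members lay above 0, with a median interaction of 0.82, and 14 of 24 had an unadjusted p under 0.05. Most of this came from day 7, when the list median was -0.67 with 23 of 24 below 0. On day 39, in the fit of 12 libraries, that median was 0.13. MSMO1, the sterol methyl oxidase, had on day 39 99.04, 178 and 277 CPM in low growth, against 98.2, 133.7 and 164 CPM in high growth. On day 7 it had 59.5, 137.3 and 196 CPM in low growth, against 159.5, 253 and 435 CPM in high growth. The log2 fold change was 0.45 ± 0.26 on day 39 and -1.01 ± 0.27 on day 7, and the interaction was 1.46 ± 0.37. HMGCS1 had an interaction of 1.36 ± 0.35 and CYP51A1, the lanosterol demethylase, one of 1.07 ± 0.28. On each day the classes rest on growth up to that day.

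SLC5A1 also was among the 5 genes with a symbol and the lowest interaction p. Its log2 fold change was 0.34 ± 0.21 on day 39 and -0.80 ± 0.21 on day 7, when it had 447, 660.3 and 723 CPM in low growth, against 632, 979 and 1647 CPM in high growth. The interaction was 1.14 ± 0.30, with an adjusted p of 0.987 in edgeR. C17orf78 was the other gene of these 5, at 1.52 ± 0.41. SLC10A2 had 1.70 ± 0.53 and NR1H4 1.09 ± 0.35, and in the bile acid list 11 of 12 members lay above 0. For smooth muscle genes 16 of 16 lay above 0, with a median of 0.61 and none at an unadjusted p under 0.05. For B cell genes 2 of 23 lay above 0, with a median of -0.48.

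**Figure D5:**
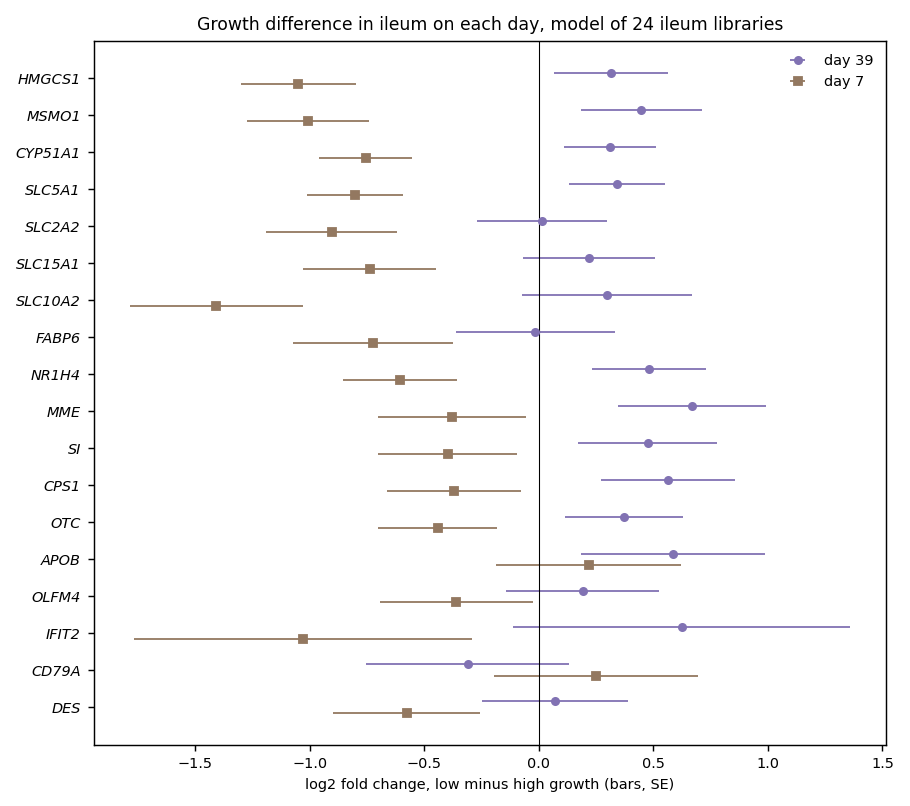
Log2 fold change (low over high growth, horizontal) with its SE as bars for 18 genes on day 39 (circles) and day 7 (squares), from 1 model of the 24 ileum libraries. HMGCS1, MSMO1, CYP51A1 and SLC5A1 lie above 0 on day 39 and below 0 on day 7, and no gene's difference between days passed the adjusted test in edgeR.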

How the data were processed

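Ileum of day 39 was compared between 6 low growth and 6 high growth libraries. The labels describe polyA-selected libraries read in pairs, with a mean RNA integrity number of 7.8 over the series. Per the submitters' processing notes, Trim Galore, kallisto and DESeq2 were used with the build Sscrofa11.1. Tool versions and the annotation were not given in the sources used here. Estimated counts per gene were deposited, and in these 12 libraries 52.5% of them were not whole, so reads of near-identical genes may be shared between them. A table of normalized signal, which the authors also deposited, was used only for an alternative test.

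Symbols and coordinates, counted from 1, are from a RefSeq table of the same build, which matched 14894 of 22924 identifiers. Genes not matched, such as MKI67, ALPI, LCT and PYY, have no value here, and a few named genes are not reported here. Estimated counts were rounded, which moved none by over 0.5. The filterByExpr filter (minimum count 10, minimum total 15) set which genes were kept, and libraries were scaled by TMM. Low was tested against high growth in edgeR 4.0.16 (R 4.3.3) by its two-sided quasi-likelihood test, and p-values were adjusted over all genes tested (Benjamini-Hochberg, threshold 0.05). The common biological coefficient of variation was 0.25. Each SE was derived from the test, as the absolute log2 fold change over the square root of its F statistic. The 95% intervals rest on these SE values. Levels of lists are means of log2 CPM with a prior count of 2. Total counts of 15247887 to 23157160 in low growth and 15515682 to 18915859 in high growth set the precision. The interaction with day used 24 ileum libraries. Single genes were tested by exact permutation of mean log2(CPM + 1). The scripts were tested on simulated data.

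Named were the 15 genes with a symbol and the lowest p, the 2 members of lowest p of each list, a set of genes fixed by name, and the 5 genes with a symbol and the lowest interaction p. Other list members and genes without overlap were picked after their values were seen. The members and lists were chosen with earlier results of these data known. Alternatives were another scaling, DESeq2 1.42.0, limma 3.58.1, other filters, covariates and leaving out libraries. Nothing beyond separate sample labels says that the replicates are separate animals, so p-values may measure a partly technical spread. The labels carry no number that pairs low with high growth libraries.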

Additional observations from a re-analysis of the deposited data

Results flagged for a closer look

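Single libraries that stood apart were sought in each group of 6 by the gap to the nearest other library, divided by the range of the group; the 95% critical value of Dixon's test was the limit. Of 370 groups of values (the named genes, 48 list means and the library totals, in low and in high growth) 20 passed, 11 of genes and 9 of lists, and chance flags about 1 in 20 such groups. All values here are log2 CPM.

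Low growth replicate 1 stood above its group for MUC2 at 10.25 (nearest library 8.93), for the glucose transporter SLC2A2 at 6.35 (nearest 5.83) and for the mean of the bile acid list at 5.95 (nearest 5.15). The same library stood below its group for SGMS1 at 4.98 (nearest 5.29), for MYOCD, a coactivator of smooth muscle genes, at -0.031 (nearest 1.15), and for the mean of heat shock genes at 7.14 (nearest 7.38).

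Low growth replicate 5 was far above its group for ND4L, a mitochondrially encoded complex I subunit, at 6.24 (nearest 5.26) and for IGF1R at 4.26 (nearest 3.68). It was also high for crypt stem cell genes at a mean of 4.29 (nearest 4.05) and for erythroid genes at 3.67 (nearest 2.93), and low for CD79A at 8.23 (nearest 8.55). Low growth replicate 2 was high for PGLYRP1 at 1.76 (nearest 1.15) and low for SREBF1 at 6.09 (nearest 6.45). Low growth replicate 4 was low for SLC27A2 at 2.28 (nearest 2.90), and low growth replicate 6 was low for enteroendocrine genes at a mean of 2.19 (nearest 2.55).

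In high growth, replicate 2 stood high for PXDC1 at 8.49 (nearest 8.11) and for antigen presentation at a mean of 8.26 (nearest 7.88), and low for mast cell and eosinophil genes at 2.02 (nearest 2.56). High growth replicate 5 was high for genes of fat synthesis at a mean of 5.58 (nearest 5.37) and low for smooth muscle genes at 6.58 (nearest 7.22).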

How the results depend on the processing

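The count of genes past an adjusted p under 0.05 was 0 in edgeR and 11 in DESeq2, which was run without the filter on low counts. In edgeR it was 1 without that filter and 0 to 2 when each library was left out. It was 2 without low growth replicate 4 and 1 without high growth replicate 5. DESeq2 alone brought B3GALT2 (-3.11), RFLNA (-1.64), ADAMTS3 (1.003) and SLC6A6 (0.64) past the threshold, and it called 2 genes in the interaction with day. Genes with an unadjusted p under 0.05 numbered 162 in the model of 24 ileum libraries, 1603 with the Y-linked split and 363 with the B cell level as covariate, and 419 (without high growth replicate 3) to 1698 (without high growth replicate 5) with a library left out. They numbered 1400 without low growth replicate 1 and 432 without high growth replicate 2. Genes whose groups do not overlap numbered 33 to 110 with 1 library left out. Without both low growth replicate 1 and high growth replicate 2, a choice made after seeing the data, 54 lay higher and 59 lower in low growth, where fewer samples make such gaps likelier by construction. Of the named genes 13 changed sign under some alternative, in 39 of 3125 values. With the Y-linked covariate the log2 fold change was 0.011 for IGF1, 0.094 for FGF19, -0.081 for DES and 0.0049 for JCHAIN. With the B cell covariate it was -0.026 for OLFM4, 0.0096 for FABP6, -0.070 for SLC2A2 and -0.017 for LGR5. FABP6 was at 0.0072 with voom and 0.013 on the deposited normalized table. Without both of those libraries FABP6 was at 0.0020, SLC2A2 at -0.17, LGR5 at -0.055 and SLC2A5 at -0.042. With each library left out in turn, the log2 fold change ran from -0.46 to 0.97 for IFIT2, -0.040 to 0.32 for SLC15A1, -0.055 to 0.14 for CCK, -0.22 to 0.21 for FABP6, -0.12 to 0.22 for DES, -0.13 to 0.33 for SLC2A2, -0.11 to 0.17 for LGR5, -0.39 to 0.019 for JCHAIN, -0.034 to 0.28 for SLC2A5 and -0.56 to 0.025 for MUC2. The median of the fat list, -0.017 without low growth replicate 1, was the 1 of 1104 list medians that moved by over 1 SD, taken between libraries of a group on the list's mean log2 CPM. That limit is wide for lists that vary much between libraries, as for interferon-stimulated genes, whose median ran from -0.58 to 0.11 with a library left out. The cause of each of these changes was not tested. No paired analysis was possible because the labels carry only library names and no number shared between low and high growth. With 6 libraries a group and a median SE of 0.17, small differences may have gone undetected. The printed intervals are for single genes and are not adjusted for the number of genes tested. They are therefore no limit of detection, and larger differences, as for B3GALT2 at -3.11, did not pass the adjusted test in edgeR either.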

Other observations

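Of the 11 genes that DESeq2 called, 5 carried a symbol. The deposited identifier ENSSSCG00000038275, which has no symbol in the table used, had 26.4, 81.9 and 154.06 CPM (lowest, median and highest library) in low growth, against 23.9, 28.4 and 49.03 CPM in high growth. Its log2 fold change was 1.54 ± 0.32 (SE), with an adjusted p of 0.814 in edgeR and 0.004752 in DESeq2. Its groups overlapped. ENSSSCG00000009499, also without a symbol, had 0.182, 2.80 and 4.81 CPM in low growth, against 0.1103, 0.131 and 0.184 CPM in high growth, where no library held over 3 counts. It did not pass the filter on low counts. DESeq2 called it with an adjusted p of 8.121e-08, edgeR called it at 0.03801 without that filter, and edgeR called it at 3.777e-05 without low growth replicate 4. Both identifiers were chosen after their values were seen.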
